A study of Homo sapiens with 3 samples.

Results

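Metallothionein genes and MTF1, the gene of the transcription factor that switches them on when metals rise, were followed in SKOV3 cells depleted of the histone methyltransferase G9a. The genes were MT1E, MT1F, MT1G, MT1H, MT1M, MT1X, MT2A and MTF1, taken by name through the array annotation. These 8 genes, of 19775 with at least 1 probe set that names a single gene, had 14 probe sets of 54675 on the array. SKOV3 is an ovarian cancer cell line, and it was transduced by lentivirus with G9a shRNA1, with G9a shRNA2 or with an shRNA against luciferase (Luc shRNA), which has no target in human cells. All cells had been selected with puromycin for stable expression, so all 3 conditions share the transduction and the selection. Each condition was measured on 1 Affymetrix array, so no value has a replicate error, no test across replicates exists and precision is limited by the number of arrays.

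Metallothioneins are small cysteine-rich proteins that bind zinc and copper and also take up toxic metals such as cadmium. Their genes lie side by side on chromosome 16, and free zinc drives their transcription through MTF1, a zinc finger protein that binds metal response elements in their promoters. Glucocorticoids and oxidative stress are further known inducers, and in cancer cells metallothioneins are known for binding platinum drugs. G9a, encoded by EHMT2, places repressive methyl groups on lysine 9 of histone H3.

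The promoters are shown because they hold the elements that MTF1 binds. RefSeq promoter windows (GRCh38.p14) matched 4 of the 8 genes, and the 250 bases before the transcription start are printed for the 3 metallothionein genes among them, from 5′ to 3′ on the strand of the gene. Capitals mark each match to the core of the metal response element, searched as TGCACNC or TGCGCNC on both strands, and no matches overlap.
MT2A chr16:56608334-56608583 (+ strand): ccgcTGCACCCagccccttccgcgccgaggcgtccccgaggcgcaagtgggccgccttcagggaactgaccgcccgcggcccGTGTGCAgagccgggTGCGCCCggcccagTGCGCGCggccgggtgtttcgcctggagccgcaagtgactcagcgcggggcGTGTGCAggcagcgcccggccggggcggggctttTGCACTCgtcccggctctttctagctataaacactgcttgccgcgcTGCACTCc
MT1H chr16:56669564-56669813 (+ strand): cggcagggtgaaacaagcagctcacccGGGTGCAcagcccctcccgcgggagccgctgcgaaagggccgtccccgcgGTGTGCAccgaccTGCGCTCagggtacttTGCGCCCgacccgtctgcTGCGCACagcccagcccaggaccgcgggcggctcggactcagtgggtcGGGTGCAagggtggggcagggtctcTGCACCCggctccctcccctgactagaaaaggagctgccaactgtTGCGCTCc
MT1X chr16:56682220-56682469 (+ strand): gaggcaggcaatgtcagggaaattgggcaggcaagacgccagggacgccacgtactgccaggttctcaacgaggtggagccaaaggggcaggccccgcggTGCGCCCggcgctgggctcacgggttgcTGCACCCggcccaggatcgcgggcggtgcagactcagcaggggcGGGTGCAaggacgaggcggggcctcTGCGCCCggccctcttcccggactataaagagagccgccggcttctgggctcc
MT1H had 8 matches, MT2A had 7 and MT1X had 4. Among 27305 promoters of the same length, 24.7% held at least 1 match, 0.366% at least 4, 0.033% at least 7 and 0.0183% at least 8. MTF1, whose window (chr1:37859593-37859842, minus strand) was as rich in G and C at 70%, had 0 matches to these letters. In all 3 metallothionein promoters a match on the forward strand ended 47 or 48 bases before the start. Another, on the reverse strand, ended 72 bases before it in MT1H and MT1X and 82 bases before it in MT2A. A match to the letters is a description of the sequence and not a measurement of binding.

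On the array, no metallothionein gene and not MTF1 was more than 2-fold from the Luc shRNA array with either G9a shRNA at its brightest probe set with usable signal. MT1H was lower with G9a shRNA1 by 1.62-fold and with G9a shRNA2 by 1.22-fold. MTF1 was higher at its brightest probe set with both shRNAs, by 1.46-fold and 1.39-fold. MT1X had a log2 ratio to Luc shRNA of -0.46 with G9a shRNA1. Among the brightest probe sets of MT2A, MT1E, MT1F and MT1G, the one furthest from the control was that of MT1G with G9a shRNA1, 1.14-fold lower. Dimmer probe sets lay further off, 1.39-fold and 1.62-fold higher for MT1F and 1.42-fold and 1.29-fold lower for MT1E. A probe set was called usable when its highest signal of the 3 arrays reached the median of all values, 12.0, and 7 of the 8 genes passed. MT1M was the gene that did not.

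Thus 0 of the 7 member genes past the median were more than 2-fold higher or lower, with both shRNAs or with at least 1. Over all 13192 genes past the median, 2.57% were more than 2-fold higher with both shRNAs and 1.66% lower. When 1 shRNA past 2-fold sufficed, provided the sign with the other matched, 5.26% were higher and 5.59% lower. All 7 member genes also passed the 75th percentile of all values (89.7), and of the 8348 genes that did, 0.611% were higher and 0.467% lower with both shRNAs, and 1.71% were higher and 2.01% lower with at least 1. At these shares a count of 0 among 7 genes lies near the background and is no result about the members.

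EHMT2 itself was lower at its brightest probe set, with signals of 29.7 (G9a shRNA1) and 79.2 (G9a shRNA2), against 182 with Luc shRNA. A dimmer probe set past the median (207484_s_at) had 23.9 and 16.4, against 27.6 with Luc shRNA. Array medians ran from 11.7 to 12.3 and 2% trimmed means from 105 to 115. On the β-actin control the 3′ signal was 1.83 and 1.47 times the 5′ signal with the 2 G9a shRNAs and 3.68 times with Luc shRNA, and its part in the ratios was not tested. On the GAPDH control it was 1.12 and 1.14 times with the 2 G9a shRNAs and 1.15 times with Luc shRNA. All 8 markers fixed for the ovarian cancer line (KRT7, KRT8, KRT18, EPCAM, ERBB2, MUC1, PAX8 and WT1) were past the median, while 0 of 4 measured leukocyte markers and 1 of 4 endothelial markers (PECAM1) were. The 4 mesothelial markers passed, and none of them reached the 75th percentile. CALB2 passed through the Luc shRNA array alone (18.3, against 7.17 with G9a shRNA1 and 11.5 with G9a shRNA2). DES passed through the G9a shRNA arrays alone (18.2 and 13.8, against 6.30 with Luc shRNA).

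For the 7 metallothionein genes followed here, all signal above the median came from probe sets that can read more than 1 gene. The array maker ends a probe set's name in _x_at when some of its probes also match other transcripts, in _s_at when its probes match several transcripts of related sequence, and in _at when neither holds. Of the 11 probe sets of these genes, 9 were past the median, and all 9 were _x_at. The 2 that end in _at, 1 for MT1G and 1 for MT1M, read at most 2.27 on every array. The annotation put 0 probe sets under several gene symbols that include a member, so the sharing among paralogs shows in the names of the probe sets and not in their symbols. Each metallothionein value below is therefore the value of a probe set named after that gene, and how much of it comes from its neighbours in the cluster cannot be told apart.

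**Figure D1:**
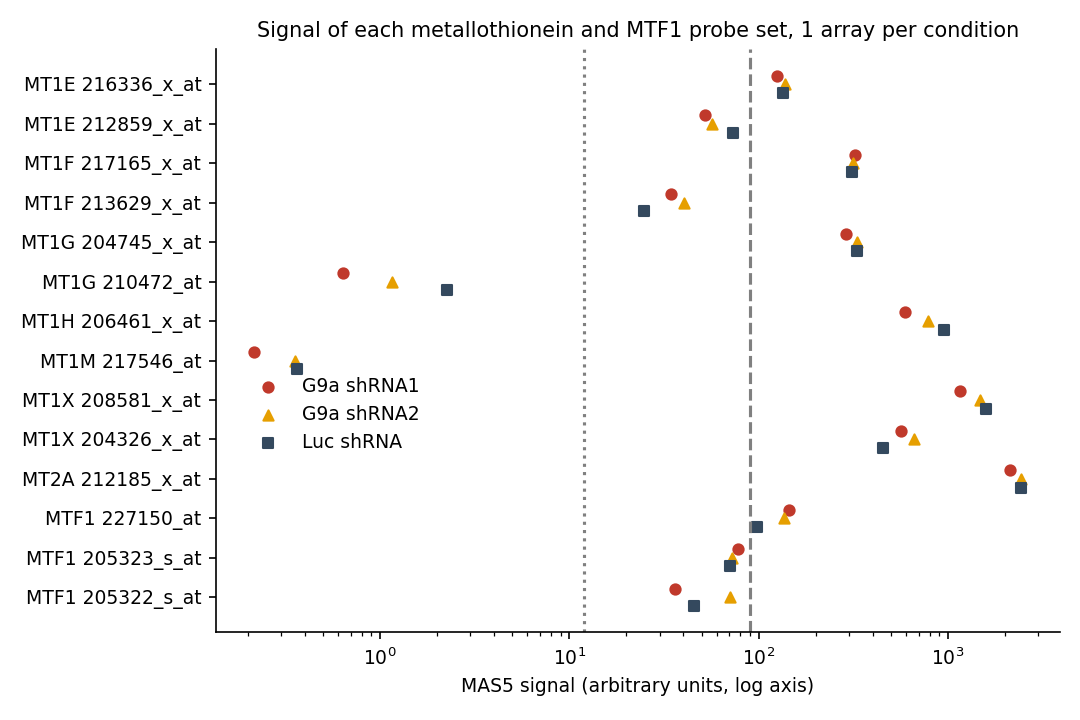
MAS5 signal (x axis, log scale) of each of the 14 probe sets as circles for G9a shRNA1, triangles for G9a shRNA2 and squares for Luc shRNA, 1 array each. The dotted line marks the median of all values, 12.0, and the dashed line the 75th percentile, 89.7; the MT1G _at and the MT1M probe sets lie far below both lines, and MT2A has signals from 2141 to 2445.

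MT2A, the metallothionein gene that is expressed in most human cell types, has 1 probe set. Its signal was 2141 with G9a shRNA1 and 2445 with G9a shRNA2, against 2437 with Luc shRNA. The log2 ratios to Luc shRNA were -0.19 and 0.0048. As a measure of spread, probe sets of like signal (1 of 20 bins) had an SD of 0.17 for the log2 difference between the 2 G9a shRNA arrays, to which any true difference of the shRNAs adds. In that bin, 40.0% and 98.5% of probe sets had ratios at least as large in size as those of MT2A.

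MT1H encodes a zinc-binding member of the MT1 group, and its probe set (206461_x_at) gave the largest differences among the usable metallothionein probe sets with G9a shRNA1. Its signal was 591 with G9a shRNA1 and 785 with G9a shRNA2, against 959 with Luc shRNA, so that both G9a shRNA arrays were below the control. The log2 ratios were -0.70 and -0.29. The like-signal SD was 0.21, and 5.74% of probe sets of like signal had a ratio at least as large in size with G9a shRNA1 and 37.0% with G9a shRNA2. The 2 G9a shRNA arrays differed from each other by -0.41 on the log2 scale, G9a shRNA1 minus G9a shRNA2.

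MT1X, another copper- and zinc-binding MT1 gene, was read in opposite directions by its 2 probe sets. The brighter one (208581_x_at) had signals of 1155 (G9a shRNA1) and 1484 (G9a shRNA2), against 1586 with Luc shRNA. The log2 ratios of this probe set were -0.46 and -0.10. The other (204326_x_at) had 567 and 666 with the 2 G9a shRNAs, against 454 with Luc shRNA, and log2 ratios of 0.32 and 0.55. For that probe set the RefSeq accession in the annotation belongs to MT1L, a metallothionein pseudogene of the same cluster, in the present gene table, and which transcript it reads was not tested. Of the 6 member probe sets with an accession in that table, it was the single one with another symbol.

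The probe sets of MT1E also differed from each other. The brighter one had signals of 125 (G9a shRNA1) and 137 (G9a shRNA2), against 135 with Luc shRNA, and log2 ratios of -0.11 and 0.028. The dimmer one had 51.8 and 56.9, against 73.3 with Luc shRNA, and log2 ratios of -0.50 and -0.36. In the dimmer one both G9a shRNA arrays lay below the control, where 27.5% and 41.0% of probe sets of like signal had ratios at least as large in size.

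The probe sets of MT1F differed in the size of their ratios but not in direction. At its brighter probe set the signal was 324 with G9a shRNA1 and 317 with G9a shRNA2, against 312 with Luc shRNA, log2 ratios of 0.056 and 0.026. At the dimmer one it was 34.5 and 40.2, against 24.9 with Luc shRNA, log2 ratios of 0.47 and 0.69. The like-signal SD for that dimmer probe set was 0.48, and 41.0% and 20.8% of its bin had ratios at least as large in size.

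MT1G was read by 1 bright and 1 very dim probe set. The bright one (204745_x_at) gave 291 with G9a shRNA1 and 329 with G9a shRNA2, against 333 with Luc shRNA, log2 ratios of -0.19 and -0.014. The dim one (210472_at) gave 0.634 and 1.16, against 2.27 with Luc shRNA, where the like-signal SD was 2.05. MT1M, a gene with a single probe set, gave 0.217 and 0.355, against 0.363 with Luc shRNA. All these values of the dim MT1G probe set and of MT1M are under the median of all values, and expression of MT1M was not detectable at this signal.

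MTF1, the metal sensor, has no _x_at probe set, and its 3 probe sets did not give 1 direction. The brightest (227150_at) had signals of 144 (G9a shRNA1) and 137 (G9a shRNA2), against 98.6 with Luc shRNA. Relative to Luc shRNA the log2 ratios were 0.55 and 0.47, and 20.1% and 24.9% of probe sets of like signal had ratios at least as large in size. The second (205323_s_at) had 77.5 and 72.5, against 70.6 with Luc shRNA, log2 ratios of 0.13 and 0.037. The third (205322_s_at) had 36.1 with G9a shRNA1 and 70.5 with G9a shRNA2, against 45.8 with Luc shRNA, so that the control lay between the 2 G9a shRNA arrays. The corresponding log2 ratios were -0.34 and 0.62.

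**Figure D2:**
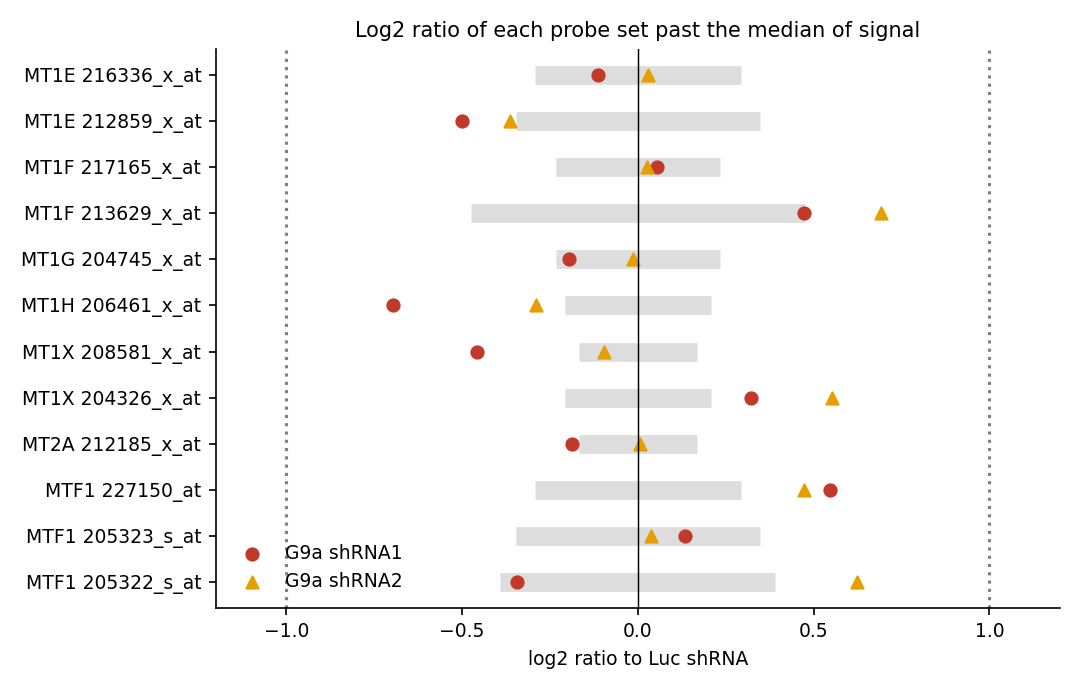
Log2 ratio to the Luc shRNA array (x axis) of the 12 probe sets past the median of signal, as circles for G9a shRNA1 and triangles for G9a shRNA2. Grey bars span 1 SD on either side of 0 of the log2 difference between the 2 G9a shRNA arrays in probe sets of like signal, dotted lines mark 2-fold, and no point reaches them; MT1H with G9a shRNA1, at -0.70, lies furthest from 0.

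Without regard to size, 2 of the 7 genes were higher with both shRNAs (MT1F and MTF1), 3 were lower with both (MT1G, MT1H and MT1X) and 2 had opposite signs (MT1E and MT2A). Over all genes past the 75th percentile, 46.9% were higher with both, 28.9% lower with both and 24.2% opposite. The median log2 ratio over the 8 members was -0.19 with G9a shRNA1 and -0.0048 with G9a shRNA2, beside 0.015 and 0.092 over all genes. Of the 9 usable metallothionein probe sets, 8 had a lower signal with G9a shRNA1 than with G9a shRNA2. The same held for 74.0% of all 14682 probe sets past the 75th percentile, whose median log2 difference between the shRNAs was -0.13, beside -0.19 for the 9 metallothionein probe sets. The probe sets share probes with their paralogs, so they are not independent counts.

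**Figure D3:**
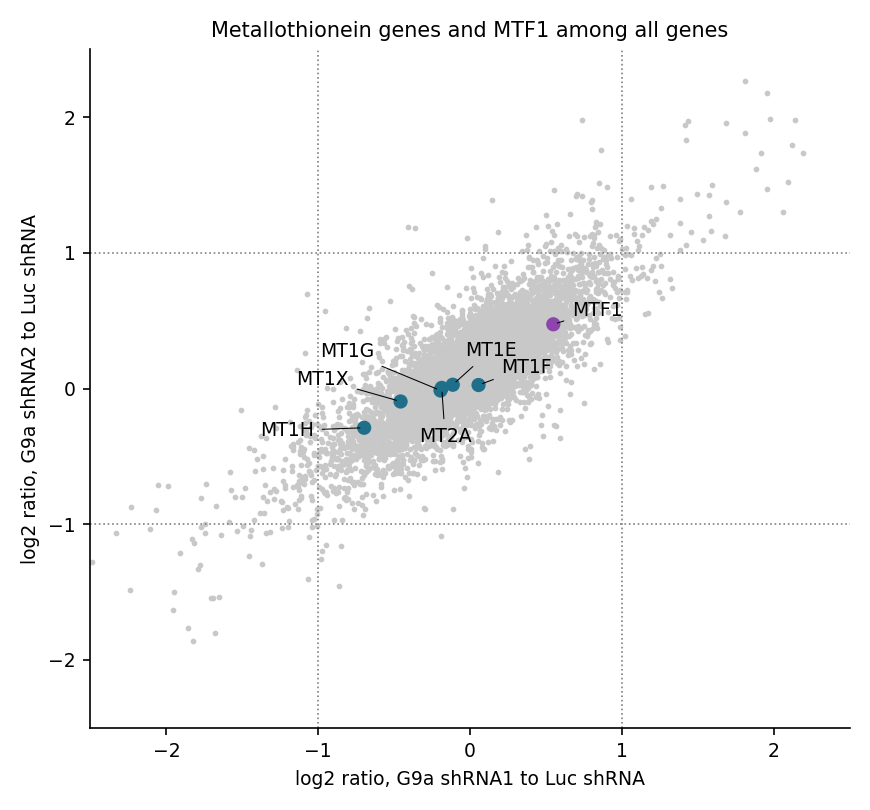
Pair of log2 ratios to Luc shRNA, G9a shRNA1 on the x axis and G9a shRNA2 on the y axis, of the 8348 genes past the 75th percentile of signal (grey, with 8 genes outside the axes), 6 metallothionein genes (blue) and MTF1 (purple), each at its brightest probe set. All 7 lie inside the dotted 2-fold lines and within the grey cloud, with MT1H at -0.70 and -0.29 and MTF1 at 0.55 and 0.47.

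Other metallothionein genes were also within 2-fold of the control where they had usable signal. Of 9 further genes and pseudogenes of the family, 3 had a probe set with a single symbol, and 2 of these passed the median. MT1HL1, a retrocopy outside the cluster, had signals of 1070 (G9a shRNA1) and 1201 (G9a shRNA2), against 1221 with Luc shRNA, at an _x_at probe set. Its log2 ratios were -0.19 and -0.024, close to those of MT2A and MT1G. MT3, known from the brain, had 20.1 and 13.2, against 19.0 with Luc shRNA, and MT4 was under the median.

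The genes with the pair of ratios most like that of MT2A were GPBP1L1, ZC3H7A, USP14, ME2 and PPFIA1, at distances from 0.0036 to 0.010 on the log2 scale over the 2 ratios. As 598 of 8347 genes (7.16%) lay within 0.1 of MT2A, likeness over 2 ratios that share 1 control array does not single out particular genes.

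Of 20 genes listed around the cluster on chromosome 16, 13 passed the median, and 9 of these were higher with both shRNAs, beside 44.0% of all genes past that filter. The 13 had median log2 ratios of 0.20 (G9a shRNA1) and 0.31 (G9a shRNA2). Over all genes past the median they were 0.0020 and 0.12. NLRC5, a regulator of MHC class I genes, had signals of 156 (G9a shRNA1) and 201 (G9a shRNA2), against 92.6 with Luc shRNA. Its log2 ratios were 0.75 and 1.12, and it was the single neighbour past the median of signal that was past 2-fold with at least 1 shRNA. By that rule 5.26% of all genes past the median were higher and 5.59% lower. ARL2BP, which binds the small GTPase ARL2, gave 0.49 and 0.62, and CIAPIN1, an iron-sulfur protein, gave 0.37 and 0.54. OGFOD1, a ribosomal prolyl hydroxylase, gave 0.30 and 0.36 at its brightest probe set and -0.27 and -0.17 at the next. Next to MT1X in this list, NUP93, a nuclear pore protein, gave -0.15 and 0.11. The difference between the cluster and its neighbours was not tested.

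**Figure D4:**
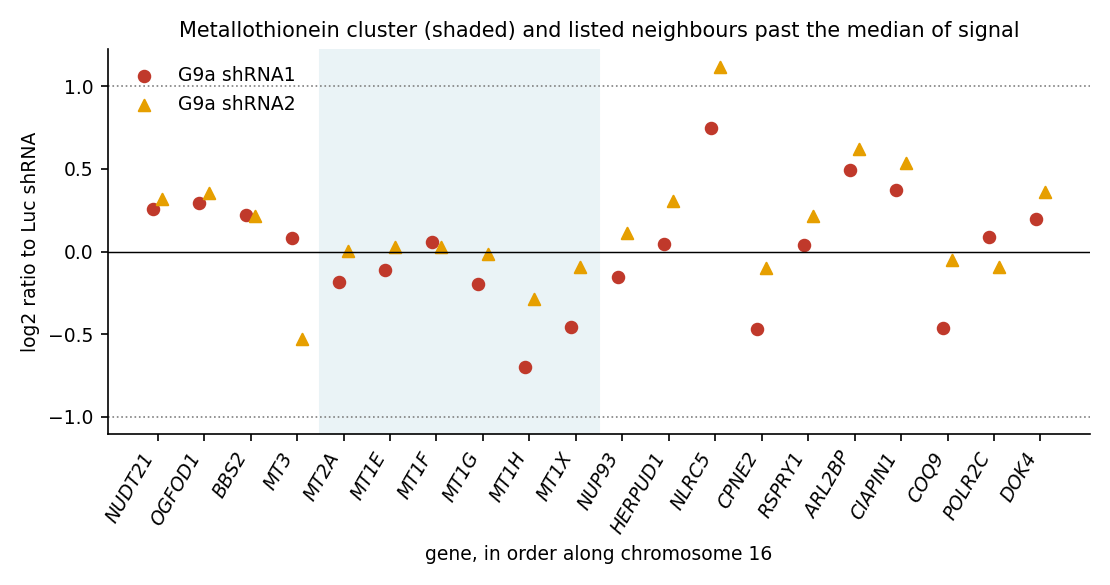
Log2 ratio to Luc shRNA (y axis) as circles for G9a shRNA1 and triangles for G9a shRNA2, of the members on chromosome 16 (shaded), of MT3 and of the listed neighbours past the median of signal, in chromosomal order and not to distance. Dotted lines mark 2-fold; NLRC5, at 0.75 and 1.12, is the one gene past a line, and MT1H, at -0.70 and -0.29, is the lowest in the shaded block.

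Around MTF1 on chromosome 1, 9 of 11 listed neighbours passed the median, with median log2 ratios of 0.12 and 0.17. YRDC, an enzyme of tRNA modification, lies next to MTF1 in this list. It had signals of 518 (G9a shRNA1) and 339 (G9a shRNA2), against 230 with Luc shRNA, log2 ratios of 1.17 and 0.56, and its second probe set gave 0.91 and 0.94. INPP5B, an inositol phosphatase on the other side of MTF1, gave -0.99 and -0.54 at its brightest probe set and -0.29 and 0.12 at the next. FHL3, a LIM domain protein, gave 0.30 and 0.50, and EPHA10, an ephrin receptor without kinase activity, gave -0.89 and 0.073 at its brightest probe set and 0.75 and 0.36 at the next.

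Zinc transporters set the zinc level that MTF1 senses. Of the 10 exporters of the SLC30A family, 8 passed the median, 0 were more than 2-fold higher and 1 was lower with both shRNAs. By the same rule, 2.57% of all genes past the median were higher and 1.66% lower. The exporter lower with both was SLC30A2, a zinc transporter of vesicles, with signals of 3.45 and 1.30, against 16.1 with Luc shRNA. Both G9a shRNA arrays were thus under the median of all values, and SLC30A2 passed the filter through the Luc shRNA array alone. SLC30A4 had log2 ratios of -0.55 and -0.41 and SLC30A9 of -0.34 and -0.26 (-0.44 and 0.16 at its next probe set), while SLC30A8, which loads zinc into insulin granules, gave 1.42 and -0.23 at signals of 13.8 and 4.41, against 5.17 with Luc shRNA. SLC30A1, the plasma membrane exporter and itself a target of MTF1, was chosen after its values were seen. Its brighter probe set had signals of 504 (G9a shRNA1) and 594 (G9a shRNA2), against 662 with Luc shRNA (log2 ratios of -0.39 and -0.16). The next gave 325 and 336, against 274 with Luc shRNA (0.25 and 0.30), so the direction depended on the probe set. The median log2 ratios of the 10 exporters were -0.28 and -0.23.

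Of the 14 importers of the SLC39A family, 12 passed the median and 0 were past 2-fold in either direction. With at least 1 shRNA, 5.26% of all genes past the median were higher and 5.59% lower. SLC39A10, a zinc importer of the plasma membrane, had signals of 363 (G9a shRNA1) and 464 (G9a shRNA2), against 569 with Luc shRNA. The log2 ratios of SLC39A10 were -0.65 and -0.30. SLC39A8, which carries zinc, manganese and cadmium, gave 0.47 and -0.19 at its brightest probe set and -0.14 and -0.88 at the next. SLC39A11 gave -0.50 and 0.29, and SLC39A1 gave 0.17 and 0.35. The median over the 14 importers was 0.043 with G9a shRNA1 and 0.20 with G9a shRNA2.

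Copper is another metal that metallothioneins bind. Of 11 copper-handling genes, all passed the median, 0 were past 2-fold higher, and 1 was lower with both shRNAs and 2 with at least 1. Among all genes past the median, 1.66% were lower with both and 5.59% with at least 1. COX17, the copper chaperone of cytochrome c oxidase, was the gene lower with both, at signals of 4.18 and 4.05, against 16.7 with Luc shRNA. Both G9a shRNA arrays were under the median of all values, so COX17 passed the filter through the Luc shRNA array alone. ATP7A, a copper-exporting ATPase, had 31.7 and 38.7, against 63.7 with Luc shRNA. Its log2 ratios were -1.01 and -0.72, and its second probe set gave -0.52 and -0.77. SLC31A1, the copper importer, was lower at each of its 3 probe sets, with -0.27 and -0.33 at the brightest. SCO2, which delivers copper to cytochrome c oxidase, gave 0.47 and 0.68.

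Genes that share inducers with metallothioneins had ratios of both signs. Among 11 measured genes of heavy metal and oxidative stress, 1 was higher with both shRNAs, none was lower with both and 1 (HSPA6) was lower with at least 1. The shares over all genes past the median were 2.57%, 1.66% and 5.59% in that order. HMOX1, the heme oxygenase that cadmium and oxidants induce, had signals of 1753 (G9a shRNA1) and 1809 (G9a shRNA2), against 792 with Luc shRNA. Its log2 ratios were 1.15 and 1.19 at its single probe set. TXNRD1, a thioredoxin reductase, gave 0.44 and 0.41, and SLC7A11, the cystine importer, gave -0.22 and -0.45 at its brightest probe set and 0.052 and -0.39 at the next. HSPA6, an inducible heat shock protein, gave -0.48 and -1.12 at signals of 9.22 and 5.89, against 12.8 with Luc shRNA. It too passed the filter through the Luc shRNA array alone. The medians of the list were -0.062 and 0.10.

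Of 9 measured genes of the glucocorticoid response, 8 passed and 0 were more than 2-fold lower. For comparison, 1.66% of all genes past the median were lower and 2.57% higher with both shRNAs. The 1 gene past 2-fold higher with both was DUSP1, a phosphatase of MAP kinases, with log2 ratios of 2.14 and 1.98 at its brightest probe set, and the study chose it on these samples. Its 2 other probe sets past the median were dim and gave -2.53 and 0.028 (226578_s_at) and 2.54 and 3.09 (201044_x_at). NR3C1, the glucocorticoid receptor, was lower at all 5 of its probe sets. At the brightest it had signals of 395 (G9a shRNA1) and 475 (G9a shRNA2), against 623 with Luc shRNA, log2 ratios of -0.66 and -0.39. ERRFI1, an inhibitor of the EGF receptor, gave 0.83 and 0.52 and the kinase gene SGK1 gave 0.57 and 0.67. The medians of this list were -0.056 and 0.22.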

How the data were processed

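The authors made the probe set signals with MAS5, per the labels, from Affymetrix arrays and deposited them as linear signal values; the scaling target, settings and version are not given in the sources used here. The signals were used as deposited. Log2 ratios of each G9a shRNA array over the Luc shRNA array were taken, and the study's rule of more than 2-fold was applied. Of the probe sets, 41097 had 1 gene symbol, 1801 several and 11777 none. Symbols were updated through Entrez identifiers, and a gene was represented by its brightest probe set (mean log2 signal). With 1 array per condition no p was computed.

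Named were all members, EHMT2, up to 4 genes per list (those with the largest mean size of ratio past the median of signal) and the 5 genes nearest to MT2A. The members and lists were chosen with earlier results of these data known. The rule of size was run on simulated bright probe sets with changes well past the threshold and independent noise. That run checks the code and gives no accuracy of the rule in these data. Alternatives were the filter, a floor, median centring, quantile normalization, the mean over probe sets, a pseudocount of 16, other thresholds and each shRNA alone. The tools were numpy 2.4.6 and pandas 2.3.3 in Python 3.11.15, with plots from matplotlib 3.10.9.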

Additional observations from a re-analysis of the deposited data

Results flagged for a closer look

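In 3 probe sets past the median of signal the log2 ratio to Luc shRNA had opposite signs with the 2 G9a shRNAs, and the difference was not tested. For MT1E (216336_x_at) it was -0.11 with G9a shRNA1 and 0.028 with G9a shRNA2. For MT2A (212185_x_at) it was -0.19 and 0.0048. For MTF1 (205322_s_at) it was -0.34 and 0.62, a log2 difference of -0.96 that 2.31% of probe sets of like signal reached in size.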

How the results depend on the processing

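The count of member genes past 2-fold with both G9a shRNAs was 0 under every alternative run. Median centring, quantile normalization, the mean over a gene's probe sets and a threshold of 1.5-fold could have changed it. A floor at the median, a stricter filter or none, a pseudocount of 16, a threshold of 3-fold and each shRNA alone could not. These do not enlarge a ratio or lower the threshold, and no main ratio of a member was past 2-fold. With at least 1 shRNA the count of member genes was 0 except in the following runs. It was 1 with the mean over probe sets (MT1G, -1.02 with G9a shRNA1 and -0.49 with G9a shRNA2, set by its dim probe set). It was also 1 at 1.5-fold (MT1H). The median over members was recomputed under the filters, the floor, the scalings, the mean over probe sets and the pseudocount. It moved by less than the like-signal SD in each of these, and leaving out the filter could not move it. That SD describes single probe sets and not a median over genes. Of 110 single ratios recomputed, 6 moved by more than that SD, all with the mean over probe sets. These were both ratios of MT1G, both of MT1X, MT1F with G9a shRNA2 and MTF1 with G9a shRNA1. MTF1 with G9a shRNA1 went from 0.55 to 0.11, and MT1X with G9a shRNA1 from -0.46 to -0.068. MT1F with G9a shRNA2 went from 0.026 to 0.36. Many of the 110 could not move, so the count of 6 is no measure of stability. A change of filter keeps each gene's brightest probe set, and the mean leaves a gene with 1 probe set unchanged. MT1H has 1 probe set with signal far above the floor, so the filters, the floor and the mean over probe sets could not change its ratios. A pseudocount cannot change a sign. After median centring MT1H was at -0.77 with G9a shRNA1 and -0.31 with G9a shRNA2. After quantile normalization it was at -0.65 and -0.38. MT1X with G9a shRNA2 turned to 0.23 with the mean over probe sets, MT1E with G9a shRNA2 turned to -0.17 there, and MT2A with G9a shRNA2 turned to -0.044 at the lowest under the scalings. MT1F turned to -0.016 with G9a shRNA1 after median centring and to -0.096 with G9a shRNA2 after quantile normalization, which moved the median of all genes past the 75th percentile by -0.11 with G9a shRNA2. No paired analysis was possible because each condition has 1 array.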
